A study of Mus musculus with 8 samples.

Results

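The Bcl2 family decides whether a cell keeps its mitochondria intact or releases the proteins that start apoptosis, and 10 of its genes were followed here in mouse embryonic stem cells (ESCs) depleted of Tip60, of Hdac6 or of both. The 10 genes are Bcl2l1, Bcl2l2 and Mcl1, which favour survival, and Bak1, Bok, Bcl2l11, Bid, Bad, Bik and Bmf, which favour death. They were taken by name: each array probe that the scanner files assign to one of these genes was included, which gave 15 of 39429 probes. All 10 genes had a probe bright enough to be tested, among 18112 genes in all. E14 ESCs, grown without feeder cells on gelatin in medium with serum and LIF, received short hairpin RNAs (shRNAs) from lentivirus and were harvested 72 hours after infection. The 4 groups were control KD (a hairpin against EGFP), the single knockdowns Tip60 KD and Hdac6 KD, and double KD (both hairpins together), with 2 biological replicates each, lettered A and B. Every group was infected, including the control KD ESCs, and the study used 1 hairpin per gene after screening several, so a hairpin's effect on other transcripts cannot be told apart from the loss of its target.

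Bcl2 family proteins meet at the outer membrane of mitochondria. The pro-survival proteins Bcl-xL (gene Bcl2l1), Bcl-w (Bcl2l2) and Mcl-1 (Mcl1) bind and hold back their pro-death relatives, the effectors Bak and Bok can open the membrane, and the BH3-only proteins Bim (Bcl2l11), Bid, Bad, Bik and Bmf carry stress signals to both. ESCs are known for a low threshold to apoptosis, and Mcl-1 is a short-lived protein that early embryos need.

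Values are log2 intensities, after each array's processed signal was divided by its 75th percentile, and changes are differences of these values. Values under a common floor of -2.71 were set to the floor, so such values have no order. A change is called at a limma adjusted p under 0.1, the threshold of the study's methods. The knocked down genes bore out the labels: Kat5, which encodes Tip60, kept 39.2% of its control KD signal in Tip60 KD and 40.4% in double KD ESCs, and Hdac6 kept 17.8% in Hdac6 KD and 27.3% in double KD ESCs. Hdac6 was also lower in Tip60 KD ESCs, where 73.9% was left (-0.44, adjusted p 0.0062), which bears on each comparison that holds Tip60 KD. Less Hdac6 signal was lost in double KD (-1.87) than in Hdac6 KD ESCs (-2.49), which bears on their comparison and on the interaction. Of 9 ESC markers, 7 were above the floor on all 8 arrays, with no value of the 9 under 2.63. Both trophectoderm markers lay at the floor on every array. Of 4 primitive endoderm markers Gata6 and Foxa2 did so too, while Gata4 was above the floor on 5 arrays (up to -1.07) and Sox17 on 3. Of the mesoderm markers T was at the floor throughout and Mixl1 above it on 1 array, and of the neural markers Sox1 was above it on all 8 and Pax6 on 2. Of 5 fibroblast markers, 2 (Thy1 and Pdgfrb) were above the floor on all 8 arrays, and the list's summed scaled signal was 2.61 to 2.93 in control KD, 3.16 to 3.67 in Tip60 KD, 2.29 to 2.42 in Hdac6 KD and 3.22 to 3.54 in double KD. The part of such cells in the results was not tested. Arrays differed in signal over background, with 21896 to 40609 of 43020 spots well above it, and both control KD arrays had a higher subtracted background (median 61.0 and 114 intensity units) than the arrays of the same letter in the other groups (37.2 to 39.4 for A and 41.4 to 89.0 for B).

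Bcl2l2 fell in all 3 knockdowns, and so did Mcl1 by 1 of its 2 probes, while the other probe showed no called change. Of the pro-death genes, Bid fell upon Tip60 KD, Bok, Bid and Bad rose upon Hdac6 KD, and Bok rose in double KD ESCs. Each of these pro-death calls was lost under at least 1 of 19 alternative fits of the data, as given below. In Tip60 KD ESCs 3 of the 10 genes were called, all lower, against 39.7% of all genes (19.7% higher and 20.0% lower). In Hdac6 KD ESCs 5 were called, 3 higher and 2 lower, against 28.9% of all genes (14.0% higher and 14.9% lower). In double KD ESCs 3 were called, 1 higher and 2 lower, against 32.8% of all genes (15.9% higher and 16.8% lower). The total called was near the background in Tip60 KD and double KD ESCs. With the replicate letter, which is also the slide, as a block, 5, 7 and 4 of the 10 were called upon knockdown of Tip60, of Hdac6 and of both, against 60.9%, 52.9% and 55.4% of all genes. The 3 comparisons share the control KD arrays, and in bulk RNA fewer cells expressing a gene and less of its RNA per cell cannot be told apart.

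**Figure D1:**
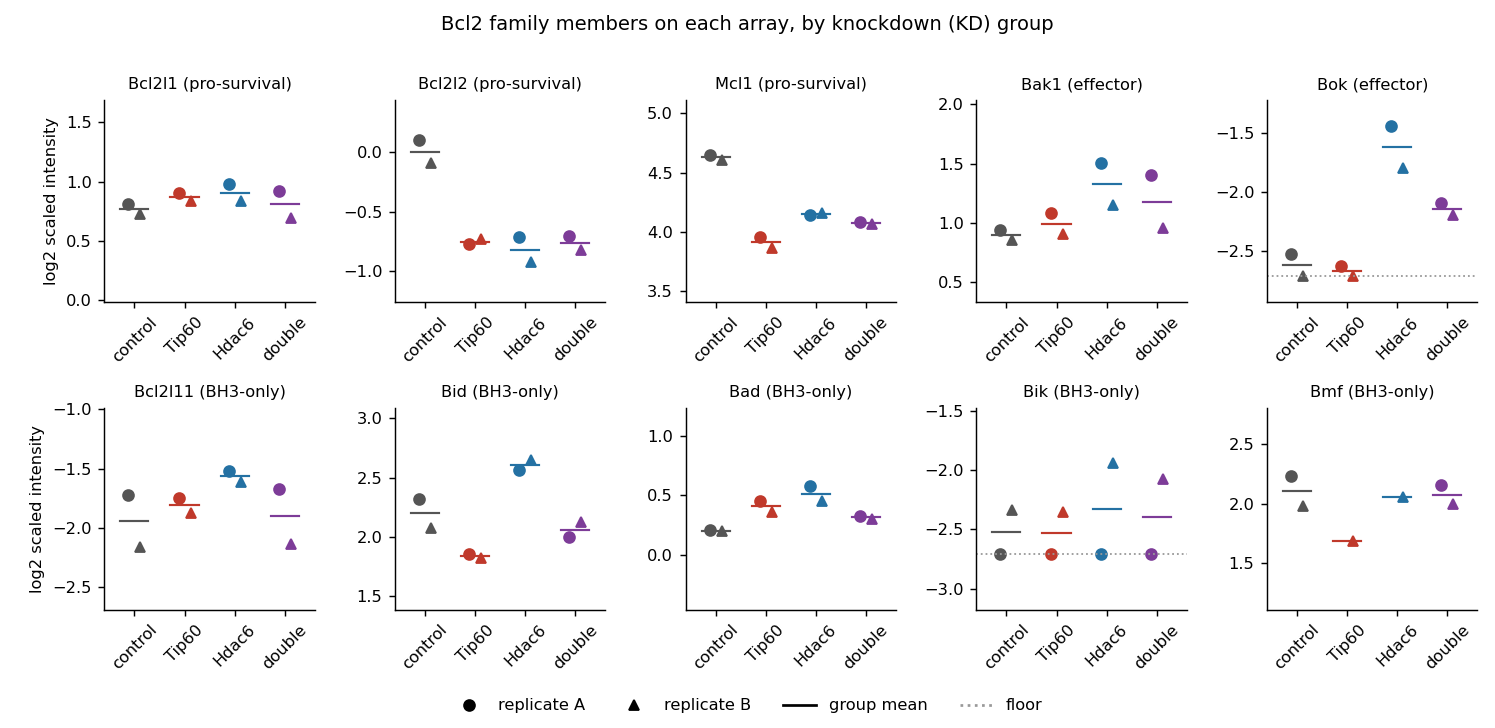
Log2 scaled intensity (y axis) of the 10 genes on each of the 8 arrays, by knockdown group (x axis), with circles for replicate A, triangles for replicate B, a bar for the group mean and a dotted line at the floor. Each panel spans the same log2 range around its own values. Mcl1 (3′ probe) and Bcl2l2 lie lower on all 6 knockdown arrays than on both control KD arrays, and Bid and Bok are highest on the Hdac6 KD arrays.

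Among the pro-survival genes, Mcl1 was measured by a pair of probes that moved differently, and Bcl2l2 by a pair that both read lower in every knockdown. Of each, 30 bases are shown to identify what was measured. Which transcripts each probe reads was not determined here, so a value of 1 probe need not stand for all RNA of the gene. Capitals mark the letters AATAAA, those of the polyadenylation signal, which 5 of the 15 probes and 12.6% of all probes hold somewhere in their 60 bases.
Mcl1 3′ probe (chr3:95466855-95466914, bases 1 to 30): gctgcttggaaagatggctctcagcaaaat
Mcl1 5′ probe (chr3:95465543-95465602, bases 1 to 30): tgcagcttctctagttagaaatgtatttct
Bcl2l2 5′ probe (chr14:55506840-55506899, bases 1 to 30): cccacttacactagggcatacatatactat
Bcl2l2 3′ probe (chr14:55507008-55507067, bases 19 to 48): ggtcgtattaaaAATAAATAAATAAAgccc
Coordinates are on mouse build mm9 as the scanner files give them, and all 4 probes read along the plus strand. The Mcl1 probes start at bases 1928 and 3240 of the transcript, 1312 bases apart, and the Bcl2l2 probes at bases 3229 and 3397, 168 bases apart. The names 5′ and 3′ give only the order within each pair. For each gene the brighter probe stands for the gene, which is the 3′ probe of Mcl1 and the 5′ probe of Bcl2l2.

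Mcl1 fell in every knockdown by its 3′ probe. The probe read 4.65 and 4.61 on the control KD arrays (replicates A and B), 3.96 and 3.87 upon Tip60 KD, 4.14 and 4.16 upon Hdac6 KD and 4.08 and 4.07 upon double KD. No group overlapped another, and the order from low to high was Tip60 KD, double KD, Hdac6 KD and control KD. Tip60 KD changed Mcl1 by -0.72 (SE 0.07, adjusted p 0.0017), leaving 60.8% of the control KD signal. Hdac6 KD changed it by -0.48 (adjusted p 0.0095), leaving 71.7%, and double KD by -0.56 (adjusted p 0.0053), leaving 68.1%. On each slide taken alone the differences were -0.69 and -0.74 for Tip60 KD, -0.51 and -0.45 for Hdac6 KD, and -0.57 and -0.54 for double KD.

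The 5′ probe of Mcl1 did not follow. It read 3.21 and 3.05 on the control KD arrays, 3.39 and 3.15 upon Tip60 KD, 3.31 and 3.26 upon Hdac6 KD and 3.28 and 3.23 upon double KD. The control KD and Tip60 KD values overlapped, and both arrays of Hdac6 KD and of double KD lay above both control KD arrays. None of its 3 changes (0.14, 0.16 and 0.12) was called in a fit of single probes, with adjusted p of 0.42, 0.39 and 0.48, where 40.6%, 30.0% and 33.8% of probes were called upon knockdown of Tip60, of Hdac6 and of both. With the replicate letter as a block the adjusted p were 0.15, 0.12 and 0.19. The change of the 3′ probe minus that of the 5′ probe was -0.85 (SE 0.10, adjusted p 0.0049) in Tip60 KD, -0.64 (adjusted p 0.023) in Hdac6 KD and -0.68 (adjusted p 0.018) in double KD ESCs. Among 3699 genes with at least 2 probes kept, 33.6%, 12.1% and 13.6% were called by this test of 2 probes of a gene, which was chosen after the Mcl1 values had been seen. The 3 Mcl1 calls held with the block, where 53.7%, 35.6% and 33.8% were called. Both probes were well above background on all 8 arrays and no spot on any array was saturated. When the probes of a gene were averaged, Mcl1 was called in Tip60 KD (-0.29, adjusted p 0.048) but no longer in Hdac6 KD (-0.16, adjusted p 0.25) or double KD (-0.22, adjusted p 0.13).

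**Figure D2:**
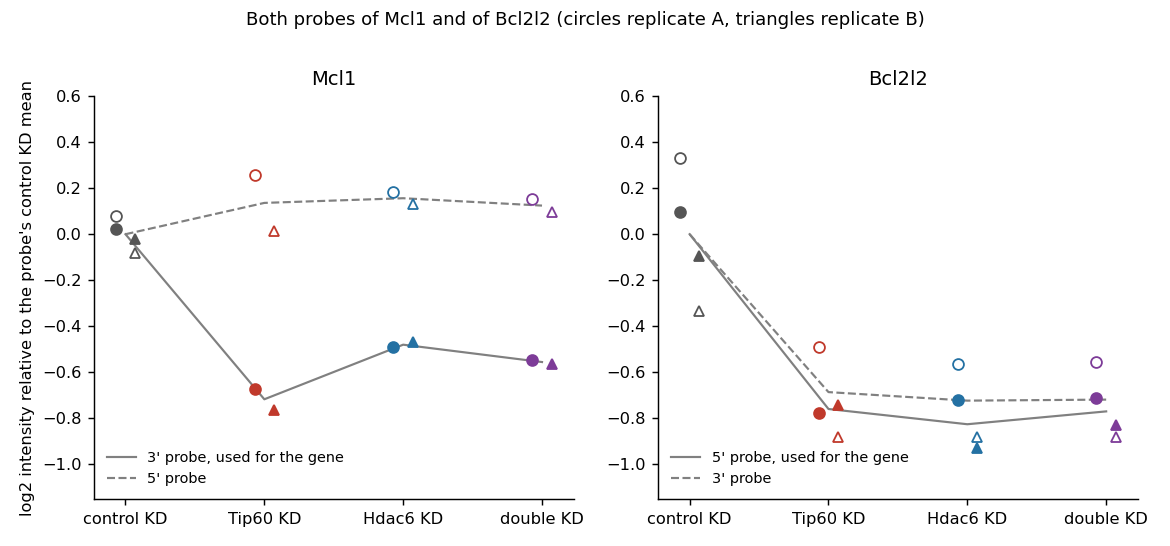
Log2 intensity of both probes of Mcl1 (left) and of Bcl2l2 (right) on each array, relative to that probe's control KD mean (y axis), in the 4 groups (x axis). Filled symbols and the solid line are the probe used for the gene, open symbols and the dashed line the other, with circles for replicate A and triangles for B and lines through the group means. The Mcl1 probes part in every knockdown, by 0.64 to 0.85. The other Bcl2l2 probe lay at the floor on the B array of each knockdown, so its fall there is a lower bound.

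Bcl2l2 fell in all 3 knockdowns, by 0.76 to 0.83. The 5′ probe read 0.10 and -0.09 on the control KD arrays, -0.77 and -0.73 upon Tip60 KD, -0.72 and -0.92 upon Hdac6 KD and -0.71 and -0.82 upon double KD. Both control KD arrays lay above the other 6, and the knockdown groups overlapped one another. The changes were -0.76 (SE 0.11, adjusted p 0.0047) in Tip60 KD, -0.83 (adjusted p 0.0071) in Hdac6 KD and -0.77 (adjusted p 0.0069) in double KD, leaving 59.1%, 56.4% and 58.7% of the control KD signal. Each of these calls held under all 19 alternatives that were run. The 3′ probe read -1.50 and -2.16 on the control KD arrays, -2.32 on array A of Tip60 KD, -2.39 on that of Hdac6 KD and -2.38 on that of double KD, with the B arrays of all 3 knockdowns at the floor. All 6 knockdown arrays were below both control KD arrays. Its changes of -0.69, -0.72 and -0.72 had adjusted p of 0.11, 0.11 and 0.11 and were not called, but all 3 were called with the replicate letter as a block (adjusted p 0.0026, 0.0033 and 0.0029), where 61.1%, 53.4% and 55.9% of probes were called. Since the floor limits the fall on the B arrays, its size was not compared with that of the 5′ probe.

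Bcl2l1, which encodes the third pro-survival protein, showed no called change. Its probe (chr2:152606404-152606463, minus strand) read 0.81 and 0.73 on the control KD arrays, 0.90 and 0.83 upon Tip60 KD, 0.98 and 0.84 upon Hdac6 KD and 0.92 and 0.69 upon double KD. Neighbouring groups overlapped throughout the order of the means, whose range of 0.14 was smaller than the gap of 0.23 between the double KD replicates. The changes were 0.10 (95% CI -0.16 to 0.36), 0.14 (-0.12 to 0.40) and 0.04 (-0.22 to 0.30) upon knockdown of Tip60, of Hdac6 and of both, with adjusted p of 0.56, 0.44 and 0.84. These intervals leave out falls as large as those of Mcl1 and Bcl2l2. A second Bcl2l1 probe lay at the floor on all 8 arrays and was not tested.

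The 250 bases before the starts of Mcl1 and Bcl2l2, the pro-survival genes with a called change, are shown from RefSeq on build GRCm38.p6, although only 1 of the 2 Mcl1 probes fell. Capitals mark matches on either strand to any of 5 motifs: the GC box (letters GGGCGG), the CCAAT box (letters CCAAT), the core of the TATA box (letters TATAAA), the E-box (letters CACGTG) and the cyclic AMP response element, or CRE (letters TGACGTCA).
Mcl1 (chr3:95658471-95658720, plus strand): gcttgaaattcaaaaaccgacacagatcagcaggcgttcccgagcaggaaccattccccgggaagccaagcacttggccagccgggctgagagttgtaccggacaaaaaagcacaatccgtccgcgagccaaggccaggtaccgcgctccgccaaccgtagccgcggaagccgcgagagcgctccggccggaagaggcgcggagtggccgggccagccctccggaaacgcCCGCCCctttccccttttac
Bcl2l2 (chr14:54883175-54883424, plus strand): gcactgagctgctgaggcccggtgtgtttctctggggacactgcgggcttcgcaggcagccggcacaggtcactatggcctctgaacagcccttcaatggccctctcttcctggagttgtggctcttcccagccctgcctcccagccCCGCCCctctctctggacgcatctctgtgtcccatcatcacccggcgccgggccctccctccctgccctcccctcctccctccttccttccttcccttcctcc
Each window held 1 GC box on the minus strand, starting 20 bases before the start of Mcl1 and 103 bases before that of Bcl2l2, and none of the other 4 motifs. Of 32851 promoter windows of the same length, 32.7% held a GC box, 33.8% a CCAAT box, 12.4% the TATA letters, 6.02% the E-box and 1.55% the CRE. None of the matches overlapped another.

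The effector Bok, a relative of Bax and Bak, showed the largest rise of the 10 genes upon Hdac6 KD, from a signal close to the floor. Its probe is shown because the letters AATAAA (capitals) lie in it, as in the probes used for Bad, Bmf and Bcl2l1, and it was well above background on 7 of 8 arrays.
Bok (chr1:95592276-95592335, plus strand, bases 31 to 60): tataagttaaaatccAATAAAgctttacct
It read -2.52 and the floor on the control KD arrays, -2.63 and the floor upon Tip60 KD, -1.45 and -1.80 upon Hdac6 KD and -2.10 and -2.20 upon double KD (replicates A and B). The Hdac6 KD arrays were highest, the double KD arrays came next, and neither overlapped control KD or Tip60 KD. Hdac6 KD raised Bok by 1.00 (SE 0.14, adjusted p 0.0077) and double KD by 0.47 (adjusted p 0.059), while in Tip60 KD the difference was -0.05 (adjusted p 0.83). Both rises depend on where the floor lies. With a floor 4 times lower they were 1.29 (adjusted p 0.029) and 0.76 (adjusted p 0.10), with 1 common background subtracted from all arrays 0.81 (adjusted p 0.0090) and 0.27 (adjusted p 0.16), and with the authors' processed log2 values 0.71 (adjusted p 0.16) and 0.26 (adjusted p 0.62). The double KD call held under 8 of 19 alternatives and was lost without either control KD array (0.56, adjusted p 0.11, without A, and 0.38, adjusted p 0.22, without B) and without either double KD array (0.42, adjusted p 0.20, without A, and 0.52, adjusted p 0.14, without B).

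Bak1, the gene of the effector that Mcl-1 and Bcl-xL hold back, was measured by a probe at chr17:27156807-27156866 (minus strand). It read 0.94 and 0.86 on the control KD arrays, 1.08 and 0.90 upon Tip60 KD, 1.51 and 1.15 upon Hdac6 KD and 1.40 and 0.96 upon double KD. Replicate A was above replicate B in every group, by up to 0.44, and neighbouring groups overlapped. The differences from control KD were 0.09 (adjusted p 0.78), 0.43 (adjusted p 0.17) and 0.28 (adjusted p 0.36), none of them called. With the replicate letter as a block, the last 2 were called (adjusted p 0.019 in Hdac6 KD and 0.067 in double KD).

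Of the BH3-only genes, Bid moved in opposite directions in the single knockdowns. Bid, the protein that links death receptors to mitochondria once caspase-8 has cut it, was measured by 1 probe.
Bid (chr6:120843464-120843523, minus strand, bases 1 to 30): ctctttccctgggtaacatcacagaagatt
It read 2.32 and 2.08 on the control KD arrays, 1.86 and 1.82 upon Tip60 KD, 2.57 and 2.65 upon Hdac6 KD and 2.00 and 2.12 upon double KD. The Tip60 KD arrays were below and the Hdac6 KD arrays above all others, and double KD overlapped control KD. Bid fell upon Tip60 KD by 0.36 (SE 0.11, adjusted p 0.050), rose upon Hdac6 KD by 0.41 (adjusted p 0.045), and differed by -0.14 (adjusted p 0.43) in double KD. Within the slides the differences were -0.46 on A and -0.26 on B for Tip60 KD, 0.25 and 0.57 for Hdac6 KD, and -0.32 and 0.04 for double KD. Tip60 KD and Hdac6 KD ESCs differed directly by -0.77 (adjusted p 0.0094), a call that held under all 19 alternatives. The calls against control KD did not hold without some single arrays. The fall upon Tip60 KD was not called without control KD array A (-0.24) or without Tip60 KD array A (-0.37) or B (-0.34). The rise upon Hdac6 KD was not called without control KD array B (0.29) or without Hdac6 KD array A (0.45) or B (0.37). In each of these fits 1 group held 1 array, and the value kept its sign. With only the arrays compared in the fit, the fall and the rise both had an adjusted p of 0.12.

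Bad, which displaces Bcl-xL partners when growth factor signalling stops, rose upon Hdac6 KD.
Bad (chr19:7026323-7026382, plus strand, bases 30 to 59): aacgtgctttatAATAAAgcctgcgcatgt
This probe read 0.20 and 0.20 on the control KD arrays, 0.45 and 0.36 upon Tip60 KD, 0.58 and 0.45 upon Hdac6 KD and 0.32 and 0.30 upon double KD. All 6 knockdown arrays were above both control KD arrays, and no neighbouring groups overlapped, although the highest Tip60 KD and the lowest Hdac6 KD value both round to 0.45. Hdac6 KD raised Bad by 0.31 (SE 0.08, adjusted p 0.042). The difference was 0.20 upon Tip60 KD (adjusted p 0.11) and 0.11 upon double KD (adjusted p 0.38), and neither was called, although the first was with the replicate letter as a block (adjusted p 0.029), with quantile normalisation (0.21, adjusted p 0.076) and with no filter on dim probes (adjusted p 0.081). The Hdac6 KD call was lost without control KD array A (0.32, adjusted p 0.13) or B (0.31, adjusted p 0.14) and without Hdac6 KD array A (0.25, adjusted p 0.17), and with normexp background correction (0.26, adjusted p 0.10), the authors' processed values (0.21, adjusted p 0.12) or both Bad probes averaged (0.15, adjusted p 0.57). The second Bad probe lay at the floor on every A array and between -2.44 and -2.01 on the B arrays, and showed no called change, with 0.17, -0.01 and 0.21 in the 3 knockdowns.

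The remaining BH3-only genes had no called change against control KD. Bcl2l11, the gene of Bim, which binds all pro-survival members, read -1.72 and -2.16 on the control KD arrays, -1.74 and -1.87 upon Tip60 KD, -1.52 and -1.61 upon Hdac6 KD and -1.67 and -2.13 upon double KD (probe at chr2:127972893-127983988, an interval of 11096 bases for a probe of 60). Both Hdac6 KD arrays were above the other 6, and the other groups overlapped. The differences were 0.13 (adjusted p 0.69), 0.38 (adjusted p 0.26) and 0.04 (adjusted p 0.92), and that in Hdac6 KD was called with the replicate letter as a block (adjusted p 0.045). A second Bcl2l11 probe lay at the floor on all 8 arrays.

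Bmf, which senses detachment from the matrix, lost a value in each of 2 groups, because the spots on array A of Tip60 KD and of Hdac6 KD carried an outlier mark. Its probe (chr2:118354496-118354555, minus strand) read 2.23 and 1.98 on the control KD arrays, 1.68 on array B of Tip60 KD, 2.05 on array B of Hdac6 KD, and 2.16 and 1.99 upon double KD. The Tip60 KD value was the lowest of the 6. With 1 array in each of these groups, which limma assumes to vary like the others, the differences were -0.42 (adjusted p 0.15) in Tip60 KD, -0.05 (adjusted p 0.89) in Hdac6 KD and -0.03 (adjusted p 0.92) in double KD. The Tip60 KD difference was called with the replicate letter as a block (-0.32, adjusted p 0.053), when the marked spots were kept (-0.36, adjusted p 0.070) and with the authors' processed values (-0.38, adjusted p 0.018), the last 2 holding a value for both Tip60 KD arrays.

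Bik (chr15:83374048-83374107, plus strand) lay at the floor on all 4 A arrays. On the B arrays it read -2.34 for control KD, -2.36 upon Tip60 KD, -1.95 upon Hdac6 KD and -2.08 upon double KD. The groups all overlapped, since the A arrays gave no measured difference, and the differences of -0.01, 0.20 and 0.13 had adjusted p of 1.0, 0.75 and 0.83. The 95% intervals reached from -0.83 to 1.02, so changes of the size seen for Mcl1 were not detectable for Bik.

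**Figure D3:**
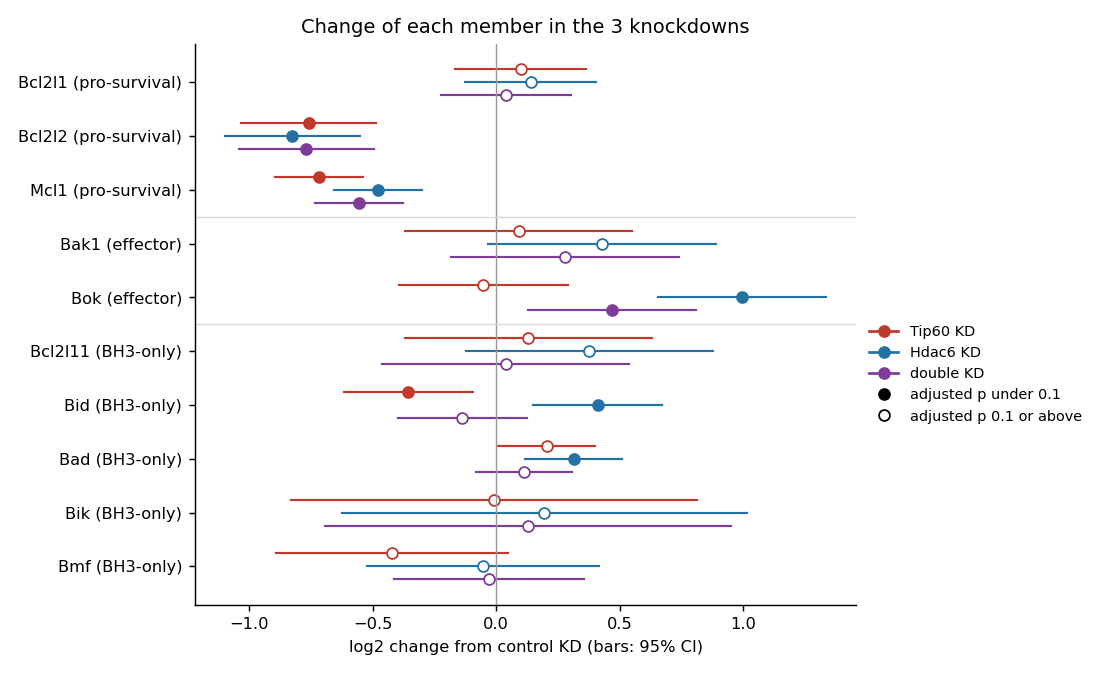
Log2 change from control KD (x axis) of the 10 genes (y axis, with their role) upon knockdown of Tip60, of Hdac6 and of both, with 95% confidence intervals from limma. Filled points have an adjusted p under 0.1. Mcl1 (3′ probe) and Bcl2l2 lie left of 0 in all 3 knockdowns, and Bok, Bid and Bad lie right of 0 in Hdac6 KD.

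Set side by side by role, the pro-survival genes had median changes of -0.72, -0.48 and -0.56 upon knockdown of Tip60, of Hdac6 and of both, and the 7 pro-death genes of -0.01, 0.38 and 0.11, where the medians of all genes were 0.06, 0.03 and 0.05. With 3 pro-survival genes the median was the value of the Mcl1 3′ probe each time, and with the probes of a gene averaged it was -0.29, -0.16 and -0.22. Each pro-death median was likewise the value of 1 gene that was not called. These were Bik in Tip60 KD, Bcl2l11 in Hdac6 KD (adjusted p 0.26) and Bad in double KD (adjusted p 0.38). With quantile normalisation the pro-death medians were -0.15, 0.32 and 0.037. In Tip60 KD the pro-death median was -0.19 with the authors' processed values and 0.091 with the lower floor. Of the pro-survival genes 2 of 3 were called lower in each knockdown, where 20.0%, 14.9% and 16.8% of all genes were. This counts Mcl1 by its 3′ probe alone, and with the probes averaged Mcl1 was called lower in Tip60 KD only. Of the pro-death genes, 1 of 7 was called lower in Tip60 KD (Bid), 3 of 7 higher in Hdac6 KD (Bok, Bid and Bad) and 1 of 7 higher in double KD (Bok), where 20.0% of all genes were lower in Tip60 KD and 14.0% and 15.9% higher in the others, so 1 of 7 is near the background. No gene of the 10 was called lower among the pro-death genes in Hdac6 KD or double KD, or higher among the pro-survival genes in any knockdown. Outside the 10, the BH3-only gene Bbc3 was called lower in all 3 knockdowns. The effector gene Bax was called in none without the replicate block, and both are given below. The counts by role are over few genes that were chosen with results of these data known, and the difference between the roles was not tested.

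Compared with one another, the knockdowns differed in Bid and Bok, both highest in Hdac6 KD ESCs, and in Mcl1 by its 3′ probe alone. Between Tip60 KD and Hdac6 KD ESCs 3 of the 10 genes were called, near the 23.5% of all genes. They were Bid (-0.77), Bok (-1.05, adjusted p 0.0083) and Mcl1 by its 3′ probe (-0.24, adjusted p 0.082). The 5′ probe of Mcl1 differed by -0.02 (adjusted p 0.99 in the fit of single probes). The Mcl1 call held under 6 of 19 alternatives, and leaving out any 1 array ended it, with values of -0.28 to -0.19 and adjusted p of 0.12 to 0.27. Between double KD and Hdac6 KD ESCs 2 were called, against 10.1% of all genes, and both were lower in double KD: Bid by 0.55 (adjusted p 0.047) and Bok by 0.53 (adjusted p 0.097). Hdac6 itself was less depleted in double KD (27.3% left) than in Hdac6 KD (17.8%), and the part of this in the differences was not tested. The Bok call held under 5 of 19 alternatives and ended without any 1 of the 8 arrays (-0.70 to -0.35, adjusted p 0.14 to 0.32). The Bid call ended without any 1 of the 4 arrays compared (-0.61 to -0.48, adjusted p 0.14 to 0.23).

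Between double KD and Tip60 KD ESCs no gene of the 10 was called by limma, against 3.70% of all genes, with differences from -0.09 to 0.52. At an unadjusted p under 0.05 only Bok differed (0.52, p 0.0099 and adjusted p 0.15 from limma), and it was called with the replicate letter as a block (adjusted p 0.018). The block also added Bak1 and Bmf between Tip60 KD and Hdac6 KD (adjusted p 0.048 and 0.079), the latter from 1 array in each group, and Bcl2l11 and Bad between double KD and Hdac6 KD (adjusted p 0.097 and 0.061). Of all genes, 26.2% were called between double KD and Tip60 KD, 29.4% between double KD and Hdac6 KD and 41.5% between Tip60 KD and Hdac6 KD with the block.

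The interaction asks whether the double KD change is the sum of the single KD changes, and 3 of the 10 genes were called, near the 22.0% of all genes. The control KD arrays enter this term, and both had a higher subtracted background than the other arrays of their letter. Hdac6 was also less depleted in double KD than in Hdac6 KD ESCs. With 1 common background subtracted from all arrays, the interaction was 0.83 for Bcl2l2 (adjusted p 0.026) and 0.59 for Mcl1 (adjusted p 0.046). For Bad it was -0.35 (adjusted p 0.13). Beyond this, the part of the background or of the Hdac6 level in the interactions was not tested. Bcl2l2 had an interaction of 0.82 (adjusted p 0.027): its double KD change of -0.77 was close to each single KD change and not to their sum. Mcl1 by its 3′ probe had an interaction of 0.64 (adjusted p 0.017), whereas its 5′ probe had -0.17 (adjusted p 0.55). Bad had an interaction of -0.41 (adjusted p 0.068), with differences of 0.20, 0.31 and 0.11 upon knockdown of Tip60, of Hdac6 and of both, of which only the second was called, and without any 1 of the 8 arrays this was not called (-0.47 to -0.34, adjusted p 0.11 to 0.17). With the replicate block Bok (-0.47, adjusted p 0.025) and Bcl2l11 (-0.47, adjusted p 0.071) were called as well, against 47.1% of all genes. With the probes of a gene averaged, none of the 3 interactions was called.

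**Figure D4:**
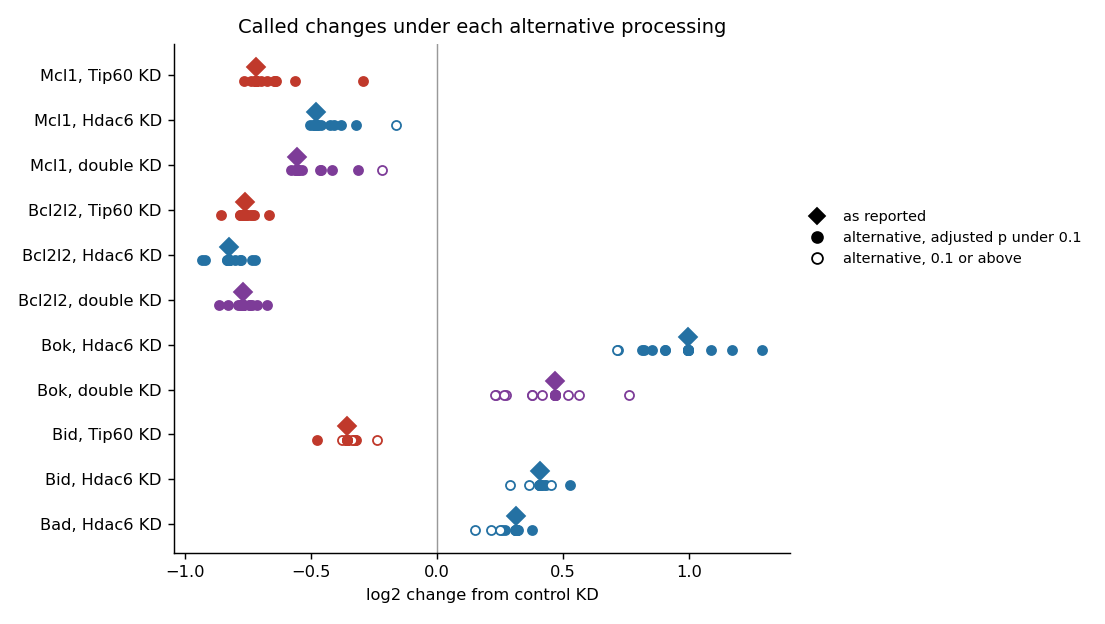
Log2 change from control KD (x axis) of each called gene and knockdown (y axis) as reported (diamonds) and under each alternative processing (circles), filled where the adjusted p is under 0.1. All points for Mcl1 and Bcl2l2 lie below 0 and all points for Bok, Bid in Hdac6 KD and Bad lie above 0, and open circles mark where a call was lost.

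Other genes of the apoptosis pathway were read from 6 lists, and the counts of those that rose or fell are of called genes. Of all genes, 19.7%, 14.0% and 15.9% were called higher upon knockdown of Tip60, of Hdac6 and of both. Those called lower were 20.0%, 14.9% and 16.8%. Among 13 tested relatives of the Bcl2 family, 1 rose and 3 fell upon Tip60 KD, 5 fell upon Hdac6 KD, and 1 rose and 3 fell in double KD ESCs, with median changes of -0.06, -0.15 and -0.07. Bbc3, which encodes the BH3-only protein Puma and is a target of p53, fell by 1.36 (SE 0.09, adjusted p 0.00075) in Tip60 KD, by 0.92 (adjusted p 0.0034) in Hdac6 KD and by 0.89 (adjusted p 0.0031) in double KD. Bnip3, a mitophagy receptor induced by low oxygen, fell by 1.28, 1.19 and 1.33, and Bcl2l13, another mitophagy receptor, by 0.82, 0.41 and 0.41. Bnip2 rose by 0.64 in Tip60 KD and 0.40 in double KD. The effector gene Bax had differences of -0.26, -0.10 and -0.23 and was not called (adjusted p 0.15, 0.65 and 0.22), but the first and the last were called with the replicate block (adjusted p 0.059 and 0.094), and Bcl2 lay at the floor on all A arrays.

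Downstream of the mitochondria, 13 genes of the apoptosome, the caspases and the released proteins were tested. In Tip60 KD ESCs 3 rose and 7 fell, in Hdac6 KD ESCs 3 rose and 3 fell, and in double KD ESCs 1 rose and 5 fell, with medians of -0.30, -0.11 and -0.14. Of all genes 39.7%, 28.9% and 32.8% were called in these knockdowns. Apaf1, the scaffold of the apoptosome, fell by 0.92, 0.58 and 0.77 (adjusted p 0.0013, 0.0084 and 0.0033). Casp6, which encodes a caspase, fell by 0.85, 0.94 and 1.03. Endog, a mitochondrial nuclease, rose by 0.68, 0.60 and 0.34. Of the 5 inhibitors of apoptosis, 1 rose and 3 fell in Tip60 KD, 2 rose and 1 fell in Hdac6 KD, and 3 fell in double KD, with medians of -0.63, -0.15 and -0.43. Birc2 (cIAP1) fell by 0.63, 0.73 and 0.76, and Birc5 (survivin, which also serves in cell division) by 0.76 in Tip60 KD and 0.43 in double KD, with -0.15 in Hdac6 KD (adjusted p 0.47, and 0.078 with the replicate block).

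The list of the death receptor pathway, which reaches the mitochondria through Bid, held 6 tested genes: 2 rose and 2 fell in Tip60 KD, and 2 rose and 1 fell in both other knockdowns, with medians of -0.06, 0.29 and 0.09. Fadd, the adaptor of death receptors, rose by 1.35, 1.37 and 1.30 (SE 0.07 each), and Tnfrsf10b, a receptor of the death ligand Trail, fell by 1.89, 0.94 and 1.10. Ripk1 rose by 1.28, 0.98 and 0.97, with control KD array A at the floor and control KD array B missing from the fit because of an outlier mark, so the size of the rise depends on the floor. Of 7 partners at the outer membrane, none rose and 3, 1 and 2 fell, with medians of -0.26, -0.20 and -0.20. Vdac1, a channel of that membrane, fell by 0.62, 0.45 and 0.36. Of 15 regulators and partners of the 10 genes, 5 rose and 5 fell in Tip60 KD, 2 rose and 2 fell in Hdac6 KD, and 2 rose and 5 fell in double KD, with medians of -0.16, -0.0045 and -0.081. Trp53, the gene of p53, rose by 0.59, 0.63 and 0.49 (adjusted p 0.0037, 0.0060 and 0.0093), and Mapk8, the gene of the kinase Jnk1, fell by 0.82, 0.59 and 0.87. Fbxw7, part of a ubiquitin ligase for Mcl-1, fell by 0.75 in Tip60 KD and 0.69 in double KD, with 0.07 in Hdac6 KD (adjusted p 0.85). Of all genes 39.7%, 28.9% and 32.8% were called upon knockdown of Tip60, of Hdac6 and of both. Over the 6 lists, 12 of 59 tested genes rose and 23 fell in Tip60 KD. Of the same genes, 9 rose and 13 fell in Hdac6 KD, and 6 rose and 19 fell in double KD. With the replicate block no call of these genes was lost, while 14 rose and 30 fell upon Tip60 KD, 14 rose and 25 fell upon Hdac6 KD, and 13 rose and 27 fell upon double KD, beside the 60.9%, 52.9% and 55.4% of all genes called with it.

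**Figure D5:**
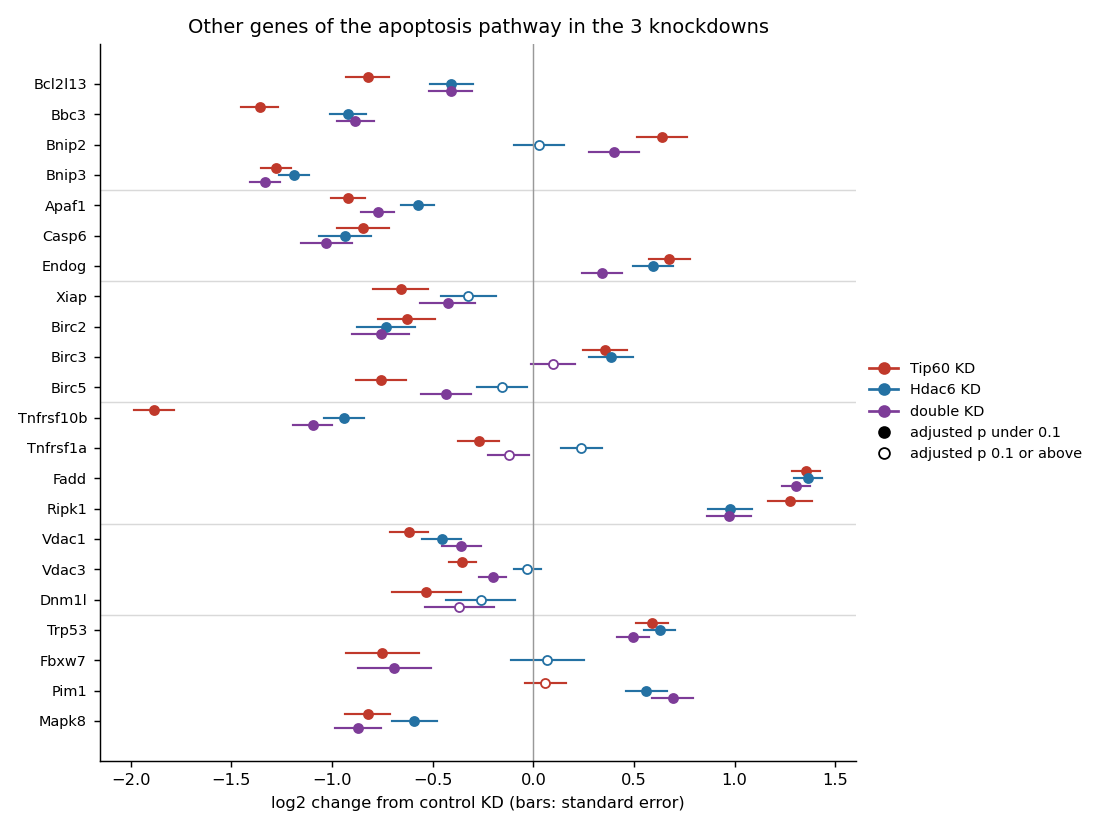
Log2 change from control KD (x axis) of the named genes of the 6 lists (y axis, lists divided by grey lines) upon knockdown of Tip60, of Hdac6 and of both, with standard errors. Filled points have an adjusted p under 0.1. Fadd and Ripk1 lie near or above 0.97 and Bbc3, Bnip3 and Tnfrsf10b at or below -0.89 in all 3 knockdowns.

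Mcl1 varied most among the 10 genes relative to its replicate spread (limma moderated F 36.4 by the 3′ probe). Of 14123 other genes above the floor on all 8 arrays, those with values most like it were Adssl1 (Pearson r 0.998), Susd6 (0.996) and Maoa (0.995), over 8 arrays that share the 4 groups. This describes likeness and was not tested.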

How the data were processed

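RNA of 8 samples (4 groups of 2 biological replicates) was hybridised to 1-colour Agilent mouse arrays. The deposited scanner files hold spot intensities from Agilent Feature Extraction 10.7.1.1, background-subtracted per the file headers, and the authors' deposited series matrix holds processed log2 values, used as an alternative. Mouse coordinates are mm9 per the file headers.

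Each array's processed intensities were divided by the 75th percentile of its non-control probes, spots with an outlier mark were left out, and spots of a probe were averaged over 39429 probes. The floor, 0.153 of the percentile (-2.71 in log2), was set by the array whose dimmest spot still well above background was brightest. A probe had to exceed both background and floor on 2 or more arrays to be kept, and a gene was read from its kept probe of highest mean. Symbols were updated for 27324 probes from RefSeq (GRCm38.p6). limma 3.58.1 (R 4.3.3) fitted all 4 groups together (4 residual and 1.84 prior degrees of freedom), with 2-sided tests, Benjamini-Hochberg adjustment over 18112 genes and calls at an adjusted p under 0.1. The fit was tested on simulated data. Python 3.11.15 and matplotlib 3.10.9 drew the figures. Precision is limited by the number of arrays, and depth does not apply.

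Each slide held 1 array of every group, and the replicate letter, the slide and the scan coincide. Replicate differences correlated between groups at 0.651 to 0.799 in all 6 pairs of groups, so the letters pair the arrays and the blocked value is given where it changes a call. Position on the slide and group cannot be told apart. The alternatives changed the normalisation, background, floor, filter, choice of probe, arrays fitted and block, and left out each array in turn, where a lone array is assumed to vary like the other groups. Keeping outlier-marked spots, the test of 2 probes of a gene, and the block in the fits of single probes, of 2 probes and of the pathway genes were added after the data had been seen.

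The 10 genes, the marker lists and the pathway lists were chosen with earlier results of these data known. The text names all 10 genes, the knocked down genes, up to 4 genes of each pathway list with the largest change among those called, and the 3 genes most like the one with the largest moderated F. Bax and Bcl2 are named in addition for their role. 1 gene that this rule would name is not reported here.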

Additional observations from a re-analysis of the deposited data

Results flagged for a closer look

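The double KD change differed from the sum of the single KD changes by limma's interaction term for 3 of the 10 genes, near the 22.0% of all genes tested. The control KD arrays, which had a higher subtracted background, enter this term. With 1 common background subtracted from all arrays, the interactions of Bcl2l2 (0.83, adjusted p 0.026) and Mcl1 (0.59, adjusted p 0.046) were called. That of Bad was not (-0.35, adjusted p 0.13). Beyond this, the part of the background was not tested. The interaction was 0.82 for Bcl2l2 (SE 0.16, adjusted p 0.027), with changes of -0.76, -0.83 and -0.77 upon knockdown of Tip60, of Hdac6 and of both. It was 0.64 for the 3′ probe of Mcl1 (SE 0.10, adjusted p 0.017), with changes of -0.72, -0.48 and -0.56. It was -0.41 for Bad (SE 0.11, adjusted p 0.068), with changes of 0.20, 0.31 and 0.11, of which limma called that in Hdac6 KD. The Bad interaction was also not called with normexp background correction (-0.33, adjusted p 0.15) or the authors' processed values (-0.31, adjusted p 0.13). Those of Bcl2l2 and Mcl1 were called with both. With the probes of a gene averaged, none of the 3 was called (0.75, adjusted p 0.11, for Bcl2l2, 0.24, adjusted p 0.27, for Mcl1, and -0.18, adjusted p 0.67, for Bad).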

How the results depend on the processing

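Over the alternatives, 108 counts of called genes stayed within 1.5 times the reported count and 24 did not. With the replicate block, 5 in place of 3 genes were called upon Tip60 KD, 5 in place of 3 between Tip60 KD and Hdac6 KD, 4 in place of 2 between double KD and Hdac6 KD, 1 in place of 0 between double KD and Tip60 KD, and 5 in place of 3 for the interaction. Upon Hdac6 KD, 3 in place of 5 were called with the series matrix and with probes averaged, and 3 to 5 without 1 array. Between double KD and Hdac6 KD, 1 in place of 2 was called with quantile normalisation, the series matrix, the lower floor, values under the floor missing or no filter, 0 by limma with the arrays compared alone (2 at an unadjusted p under 0.05), and 0 to 1 without 1 array. With probes averaged, 0 in place of 3 were called by limma for the interaction (1 at an unadjusted p under 0.05). Of the medians by role, 74 were scored as the same and 40 as moved. Of the values of single genes, 605 kept their direction and side of the threshold, 75 lost the call, 9 gained one and 28 changed sign. The sign changes were all of values that were not called. For Bcl2l11 they were -0.0089 in Tip60 KD and -0.15 in double KD with quantile normalisation, -0.025 and -0.12 with the series matrix, and -0.11 and -0.14 in double KD with normexp and the common background. For Bik the series matrix gave -0.0085 upon Hdac6 KD and -0.18 upon double KD, the lower floor -0.027 and -0.079, and quantile normalisation -0.11 upon double KD. For Bmf quantile normalisation gave 0.025 upon Hdac6 KD and 0.037 upon double KD, and the replicate block 0.052 upon Hdac6 KD, and for Bok 0.18 in Tip60 KD with the lower floor. Without 1 array, Bcl2l11 ranged from -0.088 to 0.35 in Tip60 KD and -0.19 to 0.27 in double KD, Bik from -0.20 to 0.18, -0.19 to 0.58 and -0.19 to 0.44 upon knockdown of Tip60, of Hdac6 and of both, Bmf from -0.18 to 0.074 in Hdac6 KD and -0.15 to 0.10 in double KD, Bok from -0.14 to 0.041 in Tip60 KD and Bcl2l1 from -0.075 to 0.16 in double KD. The cause of these shifts was not tested, and the values near the floor (Bok, Bik, Bcl2l11, the second probes of Bcl2l2 and Bad) are those that signal over background limits.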
